A study of Mus musculus with 8 samples.

Results

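Major urinary proteins (MUPs) are small secreted lipocalins, barrel-shaped carriers that bind volatile pheromones, and male mice release them into urine in large amounts. Most urinary MUPs are made by hepatocytes under growth hormone and androgen control, which gives the liver genes a male bias, while some family members are known from glands of the head. The genes form a cluster on chromosome 4 in which many copies are close to identical. Described here are 7 genes of the family, Mup3, Mup4, Mup5, Mup6, Mup7, Mup20 and Mup21, taken by symbol from the 19348 genes of the count table. The table held 21 Mup genes that carry a number, so 14 further members of the family were used for comparison. The genes were chosen because Mup7 had shown a large fall in liver, and the liver genotype comparison of the chosen genes is therefore given as a description, with no test.

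RNA-seq was performed on liver and epididymal white adipose tissue (eWAT), the fat pad beside the epididymis, of male C57BL/6 mice aged 12 weeks that were kept on a normal diet and fasted for 16 h before death. In each tissue 2 libraries were labelled Crtc1-/- and 2 were labelled Crtc1+/+, giving 8 libraries of 16560085 to 19721481 counts. Crtc1 encodes a coactivator of the transcription factor CREB. The Crtc1-/- animals descended from a whole-body CRISPR/Cas9 line with cuts in exons 2 and 4, and the Crtc1+/+ animals were littermates. The knockout was not visible in the Crtc1 counts. Liver labelled Crtc1-/- had 22.1 and 18.6 CPM of Crtc1 (counts scaled to a library total of 1000000) and its controls 11.6 and 9.61, while eWAT labelled Crtc1-/- had 57.6 and 27.5 and its controls 36.9 and 36.9. Counts over the whole gene also take in exons outside the deletion, so they did not test the genotype labels. Since each group had 2 mice, an exact permutation test could not give a p below 0.333.

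The eWAT libraries differed in their markers of other tissues. All 14 genes of a hepatocyte marker list (Alb, Apoa1, Ttr and others) were above 3 counts in every library. They held 11.3% of the counts in eWAT labelled Crtc1-/- replicate 2. Their share was 0.102% to 0.673% in the remaining 3 eWAT libraries and 20.7% to 24.3% in the 4 liver libraries. For 22 epididymis markers the share reached 7.85% and 9.19% in the Crtc1+/+ eWAT libraries but was no higher than 0.00372% in the Crtc1-/- ones. All 18 adipocyte markers were above 3 counts in every eWAT library, and they held 0.274% and 0.431% in Crtc1+/+ against 4.87% and 2.35% in Crtc1-/-. The eWAT values are given below with and without Crtc1-/- replicate 2 where it changed a result. In pieces of tissue, fewer cells of a type and less RNA per cell cannot be told apart.

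All 21 numbered genes lay between positions 59956804 and 62150841 of chromosome 4 (2.19 Mb, GRCm38.p6, RefSeq gene table, where all 7 genes were found by their NCBI Gene number). The 7 genes took the ends of the cluster. Mup4, Mup6 and Mup7 were the first 3 in order of position, and Mup5, Mup20, Mup3 and Mup21 were the last 4, with the other 14 between them. Each gene had 7 exons except Mup21, which had 6, and only Mup6 was on the plus strand.

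RefSeq promoter windows, which run from 250 bases before a start site to 50 after it, existed for 14 Mup genes, among them Mup3, Mup4, Mup6, Mup7 and Mup21. The 110 bases before each start are shown because Mup4 and Mup6 had another tissue pattern than Mup3 and Mup21 in these libraries, and so that their likeness can be read from the letters. They run 5′ to 3′ on the strand of the gene, at chr4:59960668-59960777 (minus), chr4:60003371-60003480 (plus), chr4:62087318-62087427 (minus), chr4:62150842-62150951 (minus) and chr4:60070476-60070585 (minus). Capitals mark the letters TATATAA, and TGTTTNC on either strand, a short form of the motif bound by HNF3 (FOXA) factors.
Mup4: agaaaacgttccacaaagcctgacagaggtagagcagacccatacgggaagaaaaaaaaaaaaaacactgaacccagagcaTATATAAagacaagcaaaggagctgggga
Mup6: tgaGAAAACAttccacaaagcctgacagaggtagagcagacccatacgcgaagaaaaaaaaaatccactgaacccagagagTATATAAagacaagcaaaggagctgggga
Mup3: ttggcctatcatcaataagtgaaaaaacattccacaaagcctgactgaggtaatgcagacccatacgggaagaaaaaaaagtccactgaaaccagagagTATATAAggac
Mup21: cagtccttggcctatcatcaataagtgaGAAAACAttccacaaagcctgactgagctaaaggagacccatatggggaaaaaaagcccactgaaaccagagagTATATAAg
Mup7: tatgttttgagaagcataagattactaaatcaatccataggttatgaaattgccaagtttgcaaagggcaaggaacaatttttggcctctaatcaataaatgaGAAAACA
The first 2 stretches were 94.4% identical over 108 aligned bases, Mup3 and Mup21 were 93.3% identical over 104, and Mup6 and Mup3 were 91.2% identical over 91. The RefSeq start of Mup7 lay further upstream, so that its 110 bases ended at letters that lie well before the start in Mup6 and Mup21.

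Within the windows TATATAA was present in 13 of the 14 Mup promoters, with Mup7 the exception, and in 3.24% of all 32851 promoter windows. It began 29 bases before the start in Mup4 and Mup6, 11 before it in Mup3 and 8 before it in Mup21. The letters TATAAA, which overlap it by 5 bases, followed in Mup4 and Mup6 but in none of the other Mup windows (2 of 14, against 13.6% of all windows), and the base after TATATAA was G in Mup3 and Mup21. The HNF3 letters were found on either strand in 13 of 14 (20.5% of all windows), with Mup3 the exception. TGTTCT, a short motif of steroid receptors, was found on either strand in Mup3 and Mup21 (2 of 14, against 19% of all). Neither TTCNNNGAA, the STAT5 motif (8.3% of all), nor TTGCNNAA, a C/EBP motif (10.8% of all, both strands), was in any of the 14. A match describes letters in a window, and a missing one says only that these letters are not in it.

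The copies differed in how far reads could be assigned to them. In GENCODE transcripts of the same build, every window of 100 bases of Mup4 and Mup6 was found in no other gene, and the share was 98.7% for Mup5, 97.1% for Mup3 and 95.5% for Mup21. For Mup20 it was 61.2%, the rest being shared with the pseudogene Mup-ps19. For Mup7 it was 18.4%, close to the 0% to 40.6% of the 14 other Mup genes, and its nearest transcript (Mup15) was 99.2% identical over 925 bases. In contrast, the nearest transcript of Mup6 was Mup4, at 92.3%, and Mup3 and Mup21 were 96.1% identical to each other over 596 aligned bases. Estimated counts that are not whole numbers show where the counting tool divided reads. They occurred for Mup7 in 8 of 8 libraries, for Mup3 in 5, for Mup20 and Mup21 in 4, for Mup5 in 1 and for Mup4 and Mup6 in 0. The values of Mup7 therefore depend on how reads were split with its copies, whereas those of Mup4 and Mup6 rested on whole counts throughout.

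**Figure D1:**
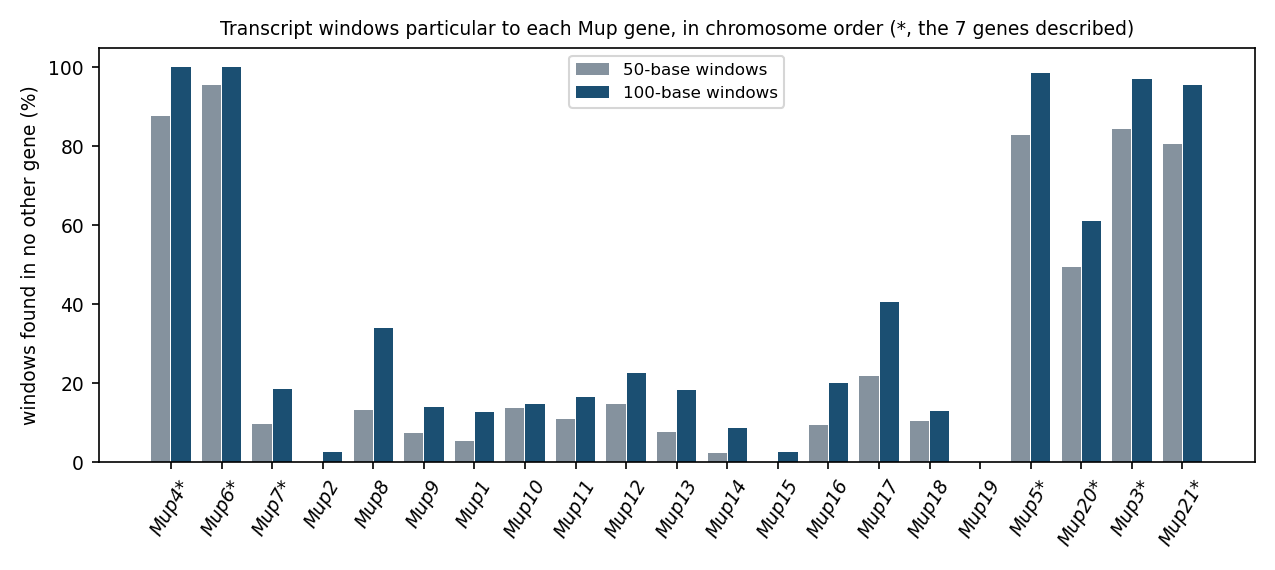
The bars give the share (percent) of 50-base and 100-base transcript windows of each of 21 Mup genes that no other GENCODE gene holds, in order along chromosome 4, with an asterisk on the 7 genes described. For 100-base windows Mup4 and Mup6 reached 100%, Mup7 had 18.4%, and the 14 genes without an asterisk lay between 0% and 40.6%.

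In liver labelled Crtc1+/+, the genes spanned a wide range of levels. By FPKM, which corrects for transcript length as far as the lengths used by the submitters hold, Mup3 came first with 3367 and 3776 in the 2 libraries. Mup20, which encodes darcin, the MUP that attracts females, followed with 900 and 936, and Mup7 with 42.9 and 259. Mup21 was at 4.95 and 10.9. These 4 genes did not overlap in FPKM. Mup5 (0.18 and 0.23), Mup6 (0 and 0.4) and Mup4 (0.09 and 0) had at most 3.27 counts in any liver library of this genotype and overlapped. In liver labelled Crtc1-/- Mup3 (1111 and 1908) and Mup20 (453.5 and 176.7) kept the first places, and Mup21 (6.79 and 2.22) and Mup7 (3.28 and 2.23) overlapped after them. In eWAT labelled Crtc1+/+ the order was another. Mup3 was again first (43.7 and 18), but Mup6 (10.7 and 16.8) and Mup4 (4 and 7.76) stood beside Mup20 (19.6 and 4.01), whose range overlapped both, while Mup6 was above Mup4 in both libraries. In CPM, Mup6 (4.2 and 6.58) and Mup4 (2.89 and 5.39) were closer, although their GENCODE transcripts have 926 and 922 bases. Mup7 (0.52 and 0.47), Mup21 (0.45 and 0.09) and Mup5 (0.23 and 0.08) were last.

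**Figure D2:**
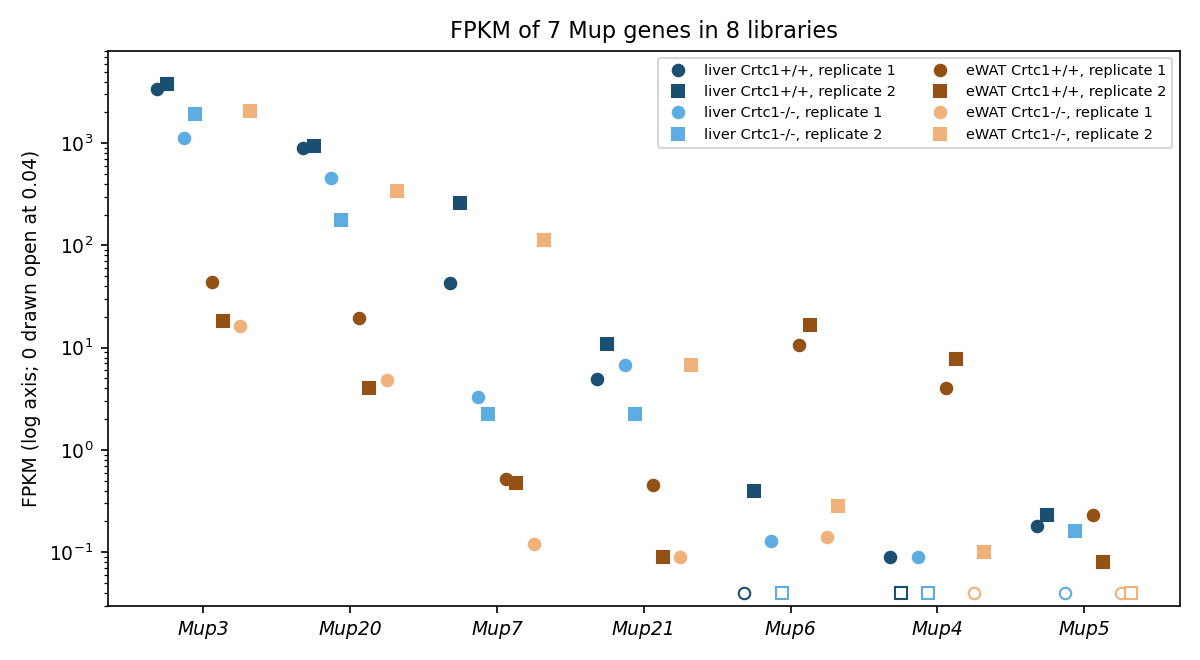
Points give the FPKM (log axis) of 7 Mup genes in 8 libraries, coloured by tissue and genotype, with a circle for replicate 1 and a square for replicate 2. In eWAT labelled Crtc1-/- replicate 2, Mup3 was at 2056 FPKM, between the values of the liver groups, while Mup4 (4 and 7.76 FPKM) and Mup6 (10.7 and 16.8 FPKM) stood out in eWAT labelled Crtc1+/+.

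Between the tissues of Crtc1+/+ mice, Mup3, Mup20, Mup7 and Mup21 were higher in liver, and Mup4 and Mup6 were higher in eWAT. All 6 passed an adjusted p of 0.05 (edgeR's quasi-likelihood test, Benjamini-Hochberg over 15034 genes, of which 23.1% were called higher and 36.7% lower in liver). Mup3 read 2687 and 2982 CPM in liver against 35.1 and 14.2 in eWAT, a log2 fold change (log2FC) of 8.34 (SE 0.73, adjusted p = 0.000554). Mup7 read 36.4 and 218.5 CPM against 0.446 and 0.393, a log2FC of 9.71 (SE 1.16, adjusted p = 0.00137). For Mup20 the log2FC was 7.77 (SE 0.92, adjusted p = 0.00134) and for Mup21 it was 6.26 (SE 0.86, adjusted p = 0.00228). These fits use TMM scaling. With library-size scaling, the scale of the printed CPM, the log2FC was 6.84 for Mup3, 8.23 for Mup7, 6.27 for Mup20 and 4.79 for Mup21. Mup7 and Mup21 passed the expression filter only through the liver libraries, where they were high. All 14 other Mup genes were also called higher in liver. For the 10 of them above the floor of 3 counts per library in eWAT the log2FC was 5.16 to 9.37, and the 4 at or under it were at least 8.69-fold to 73.5-fold higher in liver. Those 4, and others with few eWAT counts such as Mup8 (8.9 and 0) and Mup9 (3.04 and 0), also passed the filter only through liver.

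Mup4 and Mup6 went the opposite way to the rest of the family. Mup4 had 53 and 95 counts (2.89 and 5.39 CPM) in the Crtc1+/+ eWAT libraries and 1 and 0 counts in liver, which makes it at least 27.1-fold lower in liver against a floor of 3 counts per library (adjusted p = 0.00631). Mup6 had 77 and 116 counts (4.2 and 6.58 CPM) against 0 and 3, at least 35.3-fold lower in liver (adjusted p = 0.0127). These bounds use CPM by library total, while the adjusted p is from the fit with TMM scaling, on which the bounds would be smaller. The fitted log2FC was -5.68 for Mup4 and -4.59 for Mup6 with TMM, against -7.02 and -6.02 with library-size scaling. Both genes passed the expression filter only through the eWAT libraries, where they were high. The same eWAT libraries were those with 7.85% and 9.19% of their counts in epididymis markers, whose part in the difference was not tested. Mup5 was not tested in any comparison, since its counts lay between 0 and 3.27 in all 8 libraries.

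In the Crtc1-/- mice, the same tissue comparison called none of the 4 genes tested (Mup3, Mup7, Mup20 and Mup21; 18.5% of 13458 genes were called by edgeR, 0 of the 4 had an unadjusted p under 0.05, and DESeq2 and limma also called 0). This rested on 1 library. The Mup3 CPM was 890.1 and 1558 in liver and 13.2 in eWAT replicate 1, but 1681 in eWAT replicate 2, the library with 11.3% hepatocyte marker counts. Without that library the fitted values were higher in liver, Mup3 by 7.89 and Mup20 by 7.39 on the log2 scale. Mup21 and Mup7 had 1 and 1.85 counts in the remaining eWAT library, so that they were at least 17.0-fold and at least 14.6-fold higher in liver against the floor of 3 counts. Both passed the expression filter in that fit only through the liver libraries, where they were high. Without eWAT replicate 1 instead, Mup7 was at -4.46, while Mup3, Mup20 and Mup21 were at 0.43, 0.78 and 0.30. The lone remaining eWAT library was assumed in both fits to vary like the liver group.

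In liver, the libraries labelled Crtc1-/- had lower levels of the abundant members. Mup3 was at 2687 and 2982 CPM in Crtc1+/+ and at 890.1 and 1558 CPM in Crtc1-/-, a log2FC of -1.27 (SE 0.31). Mup20 was at 663.7 and 685.8 CPM in Crtc1+/+ and at 335.2 and 133.7 CPM in Crtc1-/-, a log2FC of -1.57 (SE 0.4). Mup7 was at 36.4 and 218.5 CPM against 2.79 and 1.93, a log2FC of -5.80 (SE 0.79). For these 3 genes both Crtc1-/- libraries lay below both Crtc1+/+ libraries, which held for 23% of all 11707 genes tested. The Crtc1+/+ replicates of Mup7 themselves stood well apart, whereas those of Mup3 and Mup20 were close. Mup21 was at 3 and 6.58 CPM against 4.13 and 1.39, with overlapping groups and a log2FC of -0.84 (SE 0.56). Mup4, Mup5 and Mup6 did not pass the expression filter. Without Crtc1+/+ replicate 2 the log2FC of Mup7 was -3.99. With edgeR 1 of the 4 genes tested, Mup7, was below an adjusted p of 0.05, as were 0.0854% of all genes tested. The number was 3 with DESeq2 or with no expression filter (Mup3, Mup7 and Mup20). DESeq2 called lower 1.41% of the genes to which it gave an adjusted p, and the share with no filter was not computed. With limma, in 1 fit of all 8 libraries, with upper-quartile scaling or with truncated counts the number was 0. When each library was left out in turn all 4 log2FCs stayed below 0, from -1.71 to -0.93 for Mup3 and from -1.86 to -0.16 for Mup21. Because this contrast led to the choice of the genes, these calls are no test of them, and the median log2FC over the 4 genes, -1.42, stands beside 0.00 over all genes tested only as a description.

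**Figure D3:**
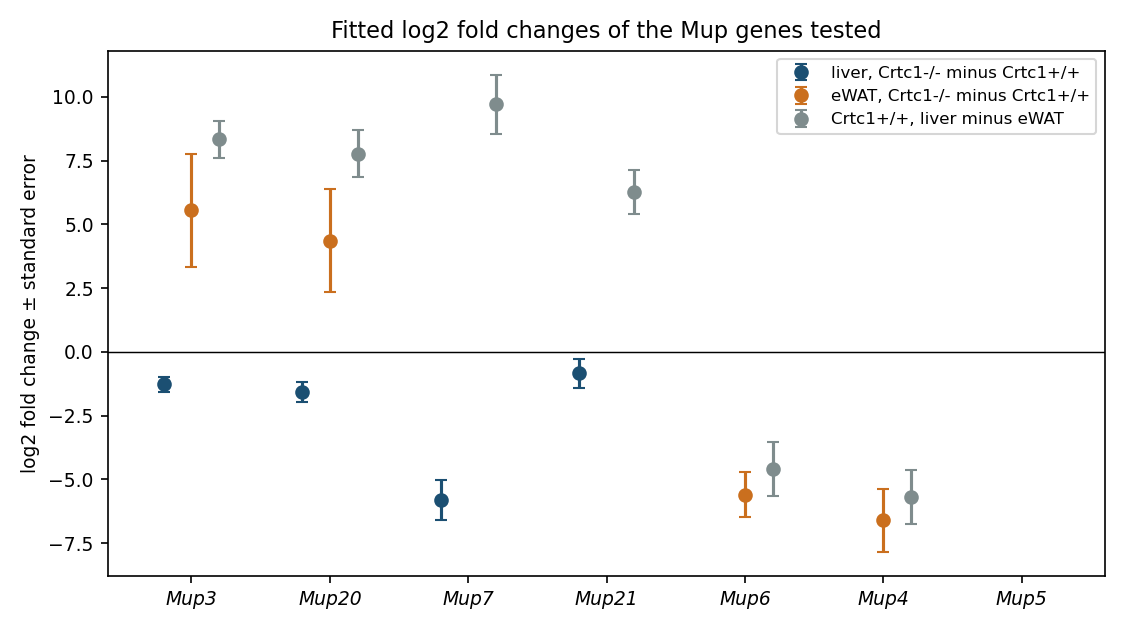
Points are fitted log2 fold changes (edgeR) of the Mup genes that passed the filter, with bars for the standard error, in liver and eWAT (Crtc1-/- minus Crtc1+/+) and between the tissues of Crtc1+/+ mice (liver minus eWAT). Mup4 and Mup6 lie below 0 in eWAT (-6.61 and -5.59), where Mup3 and Mup20 lie above it with standard errors of 2.22 and 2.02.

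Other copies in the liver cluster did not all move as these genes did. Of the 14 other Mup genes, 10 had a lower and 4 a higher fitted value in the libraries labelled Crtc1-/-, from -4.30 (Mup14, SE 0.80) to 1.28 (Mup2, SE 0.32), and 0 were called by edgeR, with 1 higher and 6 lower at an unadjusted p under 0.05 (9.73% and 7.6% of all genes), or by limma, while DESeq2 called 1 higher and 3 lower (1.81% and 1.41% of the genes to which it gave an adjusted p). Mup14 was at 136.3 and 436.3 CPM in Crtc1+/+ and at 25.3 and 4.53 in Crtc1-/-. Mup2 was at 98 and 95.5 CPM against 170.5 and 321.3, so that both Crtc1-/- libraries were above both Crtc1+/+ libraries, as in 28.4% of all genes tested. Mup10, which was abundant, was at 892.7 and 990.9 CPM against 1351 and 809.9, a log2FC of 0.15 (SE 0.30).

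The sum over all 21 Mup genes does not depend on how reads were divided among these copies. In liver it came to 4837 and 5958 CPM for Crtc1+/+ and to 3370 and 2949 CPM for Crtc1-/-. The fitted log2FC of the sum was -0.83 (SE 0.26), smaller in size than that of Mup3, Mup20 or Mup7. Within the sum, Mup7 made up 0.752% (exact binomial 95% confidence interval 0.699 to 0.81) and 3.67% (3.56 to 3.78) in Crtc1+/+ against 0.0828% (0.0619 to 0.108) and 0.0654% (0.0448 to 0.0925) in Crtc1-/-. Mup3 made up 55.5% and 50.1% against 26.4% and 52.8%, so that its share was lower in 1 of the 2 Crtc1-/- libraries. The Mup20 share was 13.7% and 11.5% against 9.95% and 4.53%. The intervals cover counting error only. The share of Mup7 differed more between the Crtc1+/+ replicates than between the Crtc1-/- replicates, and the difference of the group means was -2.14 percentage points, or -0.678 without Crtc1+/+ replicate 2.

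In eWAT, Mup4 and Mup6 were lower in the libraries labelled Crtc1-/-. Mup4 had 53 and 95 counts in Crtc1+/+ and 0 and 1 in Crtc1-/-, at least 24.9-fold lower (edgeR, adjusted p = 0.036). Mup6 had 77 and 116 counts against 1 and 2, at least 32.5-fold lower (edgeR, adjusted p = 0.0272). Of all 15391 genes tested in eWAT, 5.54% were called lower and 6.65% higher, and 44% had both Crtc1-/- libraries below both Crtc1+/+ libraries, as these 2 genes did. Both were in the test only because they were above the filter in Crtc1+/+. The calls needed both Crtc1+/+ libraries, since without replicate 1 the adjusted p was 0.173 for Mup4 and 0.159 for Mup6, and without replicate 2 it was 0.277 and 0.261. Mup4 and Mup6 moved with the epididymis markers, whose share of counts was 7.85% and 9.19% in the same 2 libraries, 0.00372% and 0.00158% in the Crtc1-/- eWAT libraries, and at most 0.00836% in liver. All 22 epididymis markers were above 3 counts in both Crtc1+/+ eWAT libraries, and 11 and 14 were in the Crtc1-/- ones. The part of the epididymis markers in the result was not tested. Of 16 markers of lacrimal, salivary and nasal glands only 6 were in the table, and 2 and 1 of these were above 3 counts in eWAT labelled Crtc1+/+, where they held 0.00183% and 0.00153% of the counts, less than the 0.0153% and 0.0159% in Crtc1-/-. The amylase gene Amy1 made up nearly all of the Crtc1-/- share, and liver libraries held 0.00984% to 0.0211% of their counts in it.

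Mup3, Mup20, Mup7 and Mup21 were high in 1 of the 2 eWAT libraries labelled Crtc1-/-. Mup3 was at 13.2 and 1681 CPM in Crtc1-/- against 35.1 and 14.2 in Crtc1+/+, a log2FC of 5.56 (SE 2.22, edgeR adjusted p = 0.158). Mup20 was at 3.62 and 255 CPM against 14.5 and 2.89, a log2FC of 4.35 (SE 2.02, edgeR adjusted p = 0.203). Neither passed this test, while DESeq2 called Mup3 higher (log2FC 5.61, adjusted p = 0.0436), and in both genes replicate 1 of Crtc1-/- was within or below the range of Crtc1+/+. Without replicate 2 the sign turned, to -0.72 for Mup3 and -1.06 for Mup20 (edgeR adjusted p = 0.483 and 0.544). Mup7 (0.1 and 97 CPM against 0.446 and 0.393) and Mup21 (0.054 and 4.2 CPM against 0.273 and 0.0568) did not pass the filter, which asked for 2 libraries. The sum over all 21 genes was 83.4 and 5236 CPM against 154.2 and 40.2, with a log2FC of 5.23 (SE 2.07, edgeR adjusted p = 0.155), and of -0.0189 without replicate 2.

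Among the eWAT libraries these 4 genes were highest where the hepatocyte markers were highest. Per 100 hepatocyte marker counts, the summed Mup counts were 2.29 and 3.93 for Crtc1+/+ eWAT, and 2.15 and 4.65 for Crtc1-/- eWAT, while the sums in CPM spanned 40.2 to 5236. In liver the ratio was 2.33 and 2.64 in Crtc1+/+ against 1.63 and 1.21 in Crtc1-/-. The marker list holds Pck1, which adipocytes also express and which made up 0.266% of the counts in Crtc1-/- eWAT replicate 1, where the whole list held 0.388%. Without Pck1 the eWAT ratios were 2.32 and 4.84 against 6.85 and 4.77, so that replicate 1 of Crtc1-/- became the highest, and per 100 Alb counts they were 4.92 and 8.72 against 16.3 and 9.80. Per 10000 hepatocyte marker counts, Mup3 was at 149.4 in eWAT labelled Crtc1-/- replicate 2, above both liver groups (129.3 and 132.1 in Crtc1+/+, 43 and 64.1 in Crtc1-/-). For Mup20 the value in that library was 22.7, between the liver groups (31.9 and 30.4 against 16.2 and 5.5). The part of the hepatocyte transcripts in the eWAT values was not tested.

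**Figure D4:**
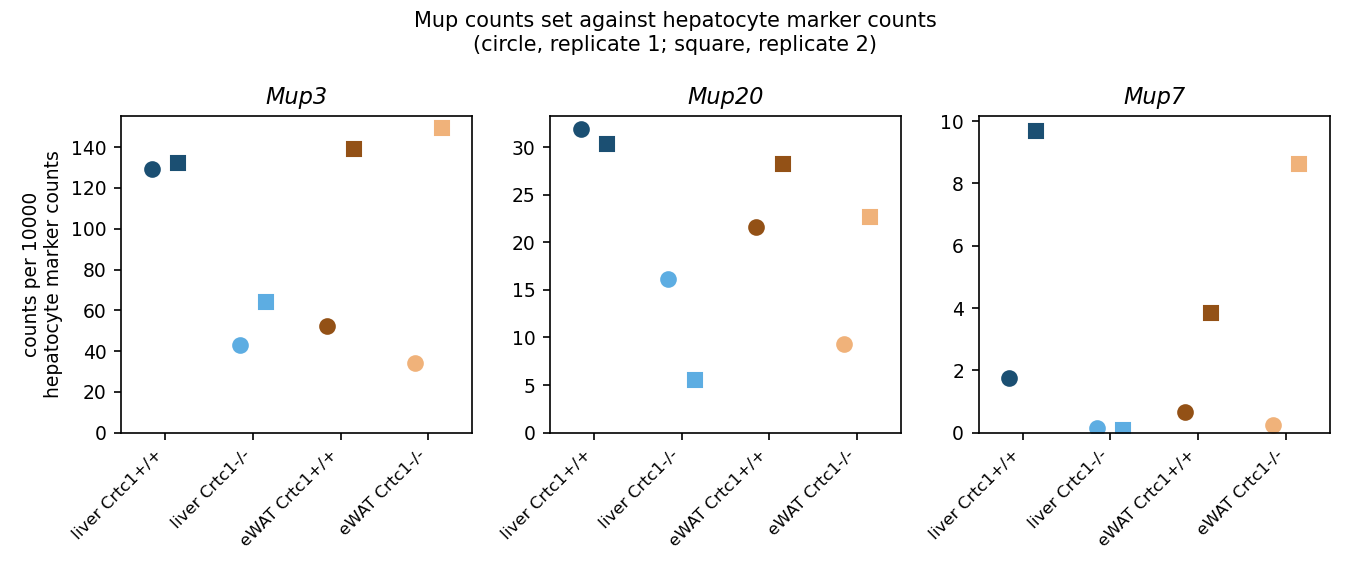
Each panel gives the counts of 1 gene per 10000 hepatocyte marker counts (linear axis from 0) in 8 libraries grouped by tissue and genotype, with a circle for replicate 1 and a square for replicate 2. In eWAT labelled Crtc1-/- replicate 2 the values were 149.4 for Mup3, 22.7 for Mup20 and 8.62 for Mup7, each above both liver libraries labelled Crtc1-/-.

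The male bias of liver genes is set by the pulsed release of growth hormone, which acts through the kinase JAK2 and the factor STAT5B, while female-biased genes are held down in males. Of 35 male-biased genes outside the Mup family, 33 were tested in liver, with 29 lower and 4 higher in the libraries labelled Crtc1-/- and a median log2FC of -0.92 (0.00 over all genes). 1 was called lower by edgeR (0.0256% of all genes), Elovl3, an elongase of very long chain fatty acids, at 17.3 and 18.3 CPM against 1.63 and 0.302 (log2FC -4.21, SE 0.55, adjusted p = 0.0418). At an unadjusted p under 0.05, 12 were lower (7.6% of all genes) and 0 were higher. Of 52 female-biased genes, 45 were tested, 34 were higher and 11 lower, and the median was 0.69. 4 were called higher by edgeR (0.0598% of all genes), namely Sult2a2 and the P450 enzymes Cyp3a41a and Cyp2b13, with log2FCs of 7.82, 6.36 and 5.30 (adjusted p = 0.0418, 0.0418 and 0.0332), and Tff3, a trefoil peptide, at 3.44 (adjusted p = 0.0233). At an unadjusted p under 0.05, 22 were higher (9.73% of all genes) and 2 lower. The lists were put together with earlier results of these libraries known and are no independent evidence of a direction. Sult2a2, Cyp3a41a and Cyp2b13 also have near-identical copies.

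Next came the components of the growth hormone pathway in liver. Of 21 genes of the growth hormone and STAT5 axis 21 were tested, 13 higher and 8 lower, with 0 calls by edgeR or limma and 1 (higher) by DESeq2, 1 gene in each direction at an unadjusted p under 0.05 (edgeR, against 9.73% higher and 7.6% lower over all genes), and a median of 0.12. Igf1, the circulating growth factor that growth hormone induces, was at 473.1 and 351.8 CPM against 230.2 and 291.1 in Crtc1+/+ (log2FC 0.61, SE 0.28, edgeR adjusted p = 0.298). Of 20 tested genes for factors reported to act at Mup genes, 0 were called by edgeR or limma and 1 (lower) by DESeq2, while 2 were higher and 3 lower at an unadjusted p under 0.05 (edgeR, beside the same 9.73% and 7.6%). Hnf4a, a master factor of hepatocytes, was at 382.7 and 452.6 CPM against 550.3 and 597.8 (log2FC -0.52, SE 0.25, edgeR adjusted p = 0.315). Of 10 lipocalins outside the family that were tested in liver, 1 was called higher by edgeR (0.0598% of all genes). This was Orm3, an acute-phase glycoprotein, at 11.8 and 6.88 CPM against 0.811 and 1.23 (log2FC 3.14, SE 0.43, edgeR adjusted p = 0.0493). At an unadjusted p under 0.05, 5 were higher and 1 lower (edgeR, beside the same 9.73% and 7.6%). Lcn8, which is also on the epididymis list, was at 8.88 and 1.09 CPM against 0.203 and 0.204. All 5 epididymis markers tested in liver were higher at that threshold.

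In eWAT the counts of the same lists are read against 6.65% of all genes called higher and 5.54% called lower. Of 18 other lipocalins tested, 10 were called lower and 2 higher, among them Lcn8 and Lcn9, which are lipocalins of the epididymis and belong to the epididymis marker list. Lcn8 was at 0.27 and 1.08 CPM in Crtc1-/- against 8274 and 6874 in Crtc1+/+ (log2FC -13.07, SE 1.26, edgeR adjusted p = 0.0169). Of 20 growth hormone axis genes 5 were called higher and 0 lower, including the receptor gene Ghr (254.7 and 189.9 CPM against 19.6 and 42.1, log2FC 3.14, SE 0.49, edgeR adjusted p = 0.0267). Of 19 factors reported at Mup genes 4 were called higher and 1 lower. Among those called higher was Cebpa, a C/EBP factor of hepatocytes and adipocytes, at 838.2 and 613.4 CPM against 104.6 and 104.3 (log2FC 3.10, SE 0.35, edgeR adjusted p = 0.0178). Of 28 male-biased liver genes 3 were called higher and 1 lower, and of 37 female-biased ones 2 higher and 1 lower. The median log2FCs of these 2 lists turned from 2.38 and 2.77 to -1.03 and -0.59 without Crtc1-/- replicate 2. For the factors reported at Mup genes the median went from 1.54 to 0.0075. It went from 0.71 to 0.63 for the growth hormone axis and from -4.87 to -4.12 for the other lipocalins. These eWAT values stood beside the marker shares given above, whose part was not tested.

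Genes outside the family were ranked by how closely their profile followed that of Mup3, the most abundant member, and Mup7, the member with the largest fitted change in liver, as the root mean square difference of centred log2 CPM among 10673 genes. Over the 8 libraries the nearest to Mup3 were Cyp2c38 (0.39), Tat (0.40), Cyp4a14 (0.41), Cps1 (0.42) and Tdo2 (0.44), all enzymes, of which Tat and Cps1 are on the hepatocyte marker list. Over the 4 liver libraries alone the order was another, with Nfil3 (0.0444), S1pr1 (0.0688) and Cdkn1a (0.0762) first. Nearest to Mup7 over the 8 libraries were Elovl3 (1.33), Slco1a1 (1.45), Serpina1e (1.51), Cyp4a12b (1.73) and Cyp4a12a (1.78), all of which are on the male-biased list. Over the 4 liver libraries Elovl3 (1.13) was again first, followed by Serpina1e (1.33) and Gm45935 (1.34). Slco1a1, Cyp4a12b and Cyp4a12a were not among the 5 nearest there. The profiles of Mup7 had no gene as near as Mup3 had. With 4 libraries many profiles can lie close, and these values describe the libraries only.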

How the data were processed

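Liver and eWAT RNA of male mice was sequenced at BGI, in 4 groups of 2 libraries defined by the tissue and genotype labels. The authors deposited estimated counts per gene (expected counts, not normalized, some not whole) and FPKM, which divide a gene's fragments by its transcript length and by the library size, both for 19348 genes. The submitters' processing notes name HISAT, Bowtie2 and GRCm38.p6, while the counting tool, its handling of reads that map to several genes and the read length are not given in the sources used here. CPM printed are counts divided by the library total and multiplied by 1000000 (16560085 to 19721481 counts).

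Counts were rounded and fitted with edgeR 4.0.16 in R 4.3.3 (filterByExpr, TMM, quasi-likelihood test, Benjamini-Hochberg over all genes tested, adjusted p under 0.05), separately for each comparison. Standard errors are those of the log2 fold change. The code was tested on simulated data. Where both libraries of a group had at most 3 counts, folds against that group are lower bounds, set against a floor of 3 counts per library. The bounds are ratios of CPM by library total and do not use the TMM scaling of the fits. The source of the animals is taken from the study's text, which calls the replicates of a group independent, and the labels do not say whether liver and eWAT of one number came from 1 mouse. Deviations of same-numbered libraries correlated at 0.0753 in liver, 0.0144 in eWAT, 0.165 between the tissues of Crtc1+/+ and 0.0196 between those of Crtc1-/-, so no pairing was used.

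Sharing of 50-base and 100-base windows and transcript identity were computed from GENCODE vM21 transcripts (longest coding transcript per gene; Biopython 1.88 for alignments), and motifs from RefSeq promoter windows of GRCm38.p6. No promoter was matched for Mup5 and Mup20. Genes named are the 7 members, other numbered Mup genes, Crtc1, up to 4 called genes of each list (with none called, the 2 most abundant; fewer are printed in places) and the 5 nearest profiles, for which a mean liver CPM of at least 1 and a prior count of 2 were used. 1 gene of the lists is not reported here. The members, lists and rules were chosen with earlier results of these data known. Alternatives were DESeq2 1.42.0, limma 3.58.1 on quantile-normalized log2(FPKM + 1) and log2(FPKM + 0.1), no filter, a mean count of at least 50, library-size and upper-quartile scaling, 1 fit of all 8 libraries, a replicate block, truncated counts and leaving out each library; hepatocyte markers without Pck1, and Mup11 and the gene lists in eWAT without Crtc1-/- replicate 2, were added after seeing the data. Figures were drawn with matplotlib 3.10.9.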

Additional observations from a re-analysis of the deposited data

Results flagged for a closer look

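Mup11 had fitted changes of opposite sign in the 2 tissues, with both libraries labelled Crtc1-/- below both Crtc1+/+ libraries in liver and above them in eWAT. The liver order held for 23% of all genes tested there, and the share for the eWAT order was not computed. Mup11 was picked from the 21 numbered genes by this pattern. It was at 14.3 and 6.72 CPM against 26.3 and 123.2 in liver (log2 fold change -2.88) and at 0.919 and 78.8 CPM against 0.493 and 0.507 in eWAT (log2 fold change 6.73). The eWAT value rested on replicate 2, the library with 11.3% hepatocyte marker counts. Without it the log2 fold change was 1.01, from 17 counts in Crtc1-/- against 9.03 and 8.93 in Crtc1+/+. Neither change was called by edgeR, and the difference between the tissues was not tested. None of the 7 genes described met this condition. Only 16.5% of the 100-base windows of Mup11 are found in no other gene.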

How the results depend on the processing

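In liver the median log2 fold change of the 4 genes tested lay between -2.13 and -1.34 under 14 alternatives, and leaving out libraries gave -2.13 to -1.37. The liver sum over the family lay between -0.99 and -0.66 under the same alternatives, and the difference in the Mup7 share between -3.59 and -0.678 when each library was left out. Over all genes in liver edgeR called 7 higher and 3 lower, DESeq2 175 and 136 and limma 0 and 0 (830 and 969 at an unadjusted p under 0.05). DESeq2 called 6 of the male-biased genes lower, 8 of the female-biased genes higher and 2 lower, and 4 other lipocalins higher. In eWAT the count of genes called was 2, and 0 under a mean count of at least 50, where Mup4 and Mup6 were no longer tested. Leaving out libraries moved Mup3 between -0.72 and 6.56 and Mup20 between -1.06 and 6.01. With the replicate number as a block 0 were called (adjusted p = 0.0583 for Mup4 and 0.0543 for Mup6), in a fit with 1 residual degree of freedom whose numbers share nothing but the number. The eWAT sum (5.23) passed with DESeq2 (5.28, adjusted p = 0.0455), and lay between -0.0189 and 6.58 when libraries were left out. It reversed to -0.0189 without Crtc1-/- replicate 2, as did Mup3 (-0.72) and Mup20 (-1.06). Over all alternatives of the sum the adjusted p ran from 0.00679 to 0.988. Between tissues in Crtc1+/+ mice 6 genes were called, and 3 under a mean count of at least 50. The 6 log2 fold changes kept their sign when libraries were left out, while library-size scaling moved that of Mup3 from 8.34 to 6.84. In Crtc1-/- mice the count was 0. There Mup7 turned from -3.46 to 0.15 with limma on log2(FPKM + 0.1), and lay between -4.46 and 5.67 when libraries were left out, 5.67 being without eWAT Crtc1-/- replicate 2. That fit held 1.85 Mup7 counts in eWAT, so 5.67 is a fitted value beside a bound of at least 14.6-fold. Summed Mup counts per 100 hepatocyte marker counts differed between the liver groups by -1.06, by -1.07 without Pck1, by -1.70 with Alb alone and by -2.16 with FPKM. The cause of these shifts was not tested. Mup5, at 0 to 3.27 counts in every library, was below what this depth allows to be compared.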

Other observations

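These values were chosen after they were seen, from the 10 genes that edgeR called in liver. In eWAT labelled Crtc1-/- replicate 2, whose hepatocyte marker share was 11.3%, some genes had levels per 10000 hepatocyte marker counts near those of liver labelled Crtc1+/+ and others near those of liver labelled Crtc1-/-. Mup7 was at 8.62 in that library. The liver values of Mup7 were 1.75 and 9.68 for Crtc1+/+ and 0.135 and 0.0794 for Crtc1-/-. Elovl3 was at 0.65, where liver had 0.832 and 0.812 for Crtc1+/+ and 0.0787 and 0.0124 for Crtc1-/-. Sult2a2 was at 4.99, where liver had 0.0679 and 0 for Crtc1+/+ and 4.24 and 10.3 for Crtc1-/-. The Sult2a2 level was also 4.37 in eWAT labelled Crtc1+/+ replicate 1. Of the 10 genes, 3 (Mup7, Elovl3 and Ppp1r3c) were nearer on a log scale to the Crtc1+/+ liver mean in that library and 7 to the Crtc1-/- mean. Among the 7, Mt2 and Lpl were still higher in the other 3 eWAT libraries, and Orm3 was at 60.2 in Crtc1-/- replicate 1 against 0.98. Among the 3, Ppp1r3c was also higher in the other eWAT libraries (24.1 and 96.5 in Crtc1+/+ and 78.5 in Crtc1-/- replicate 1, against 2.37). With 1 library these values have no error.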
